A study of Homo sapiens with 4 samples.

Results

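The RAB GTPases of membrane traffic were examined in HCT116, a line derived from a human colon carcinoma, cultured as monolayers or as multicellular spheroids (MCS). Members were all genes whose symbol was RAB followed by a number and at most a letter from A to D, which gave 57 of the 19775 genes with a probe set of 1 symbol. Each gene was represented by the brightest of its probe sets, and 37 of the 57 had a mean signal above 300 units and were tested. The groups were 2 monolayer and 2 spheroid cultures of the same unmodified line, none of them treated, with 1 array per culture. The study compared them to find how cells of a spheroid, some of which rest and lack oxygen, differ in expression. An MCS is an aggregate with a proliferating rim and a poorly supplied core, and the arrays measured whole cultures, so that fewer cells of a kind and less RNA per cell cannot be told apart.

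RAB proteins are small GTPases that give each membrane of the secretory and endocytic routes its identity. Exchange factors load them with GTP at a membrane, effectors such as tethers and motors then bind the active form, and GTPase-activating proteins switch them off. A lipid tail added by RAB geranylgeranyl transferase anchors them, and GDP dissociation inhibitors carry the inactive form through the cytosol. In intestinal epithelium RAB11 and RAB25 serve apical recycling, RAB8 and RAB13 serve delivery to the surface and to tight junctions, and RAB27 and RAB3 serve regulated secretion.

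More RAB genes were higher than lower in MCS under the authors' scaling of the arrays, and fewer were lower than among all genes. Of the 37 tested, 11 were higher (29.7%) and 1 was lower (2.7%), while 25 were not called (limma, adjusted p under 0.05). Among the higher genes, RAB27B, RAB5B and RAB33B had monolayer means of 219, 268 and 269. They passed the filter of 300 only through their spheroid arrays. Over all 8721 genes tested, 19.0% were called higher and 20.6% lower, together 39.6%, against 32.4% of the RAB genes in either direction. The median log2 difference, spheroid minus monolayer, was 0.18 for the RAB genes, with quartiles of -0.12 and 0.69, and -0.03 for all genes, with quartiles of -0.41 and 0.38. Differences of at least 2-fold were found for 4 RAB genes (10.8%) and for 11.3% of all genes. The signals of both groups did not overlap for 27 of the 37 RAB genes (73.0%, against 70.0% of all genes). Of these, 20 had both spheroid arrays above both monolayer arrays and 7 below, where all genes gave 33.4% above and 36.6% below. The count in each direction rests on the scaling: the Bacillus RNA spike-in controls were 1.82-fold brighter in MCS, and scaling to them moved the median of all genes to -0.87 and that of the RAB genes to -0.67, with 1 RAB gene called higher and 11 lower. Differences given hereafter are relative to an array's total signal, and every sentence on a higher RAB gene holds for that scaling.

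**Figure D1:**
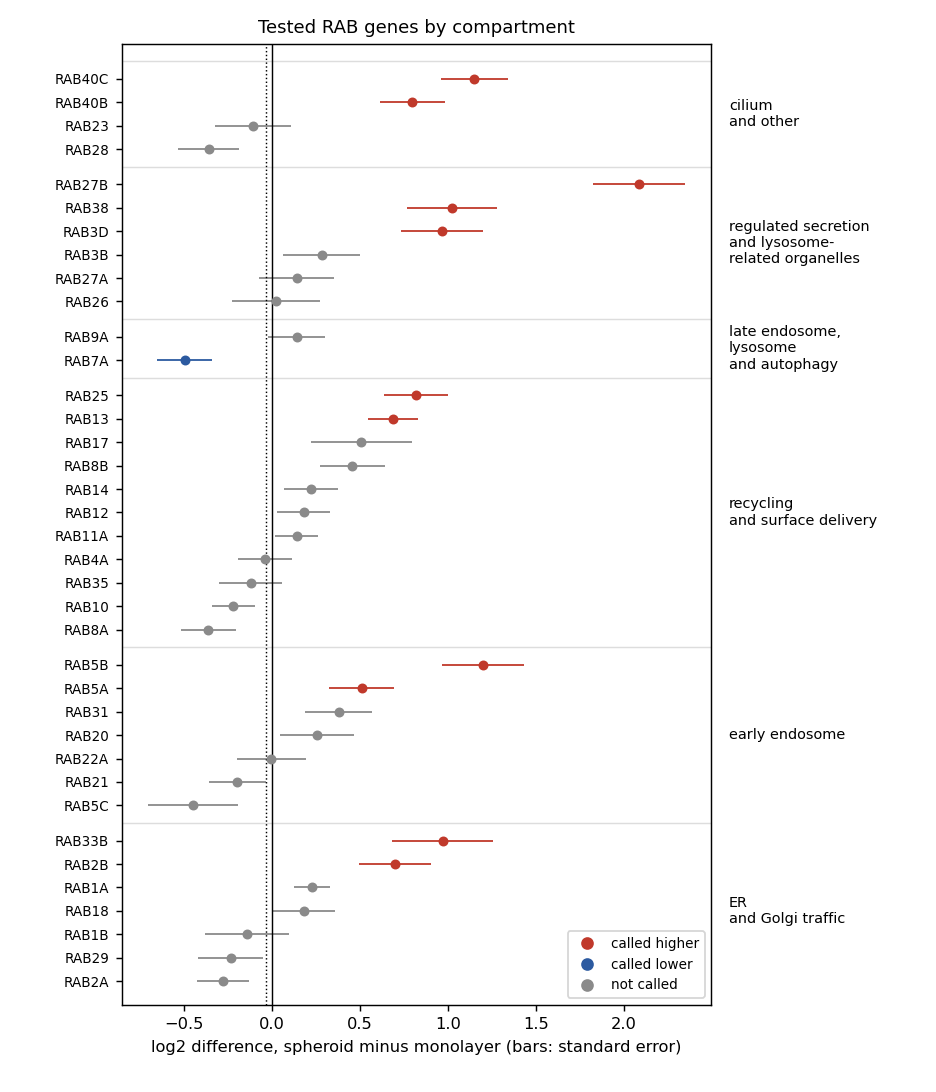
Spheroid minus monolayer log2 difference (x) of the 37 tested RAB genes (y), grouped by compartment, with standard errors (n = 2 arrays per group); the dotted line is the median of all genes tested. Coloured in red are 11 genes called higher and in blue RAB7A, called lower; with spike-in scaling RAB27B alone was called higher and 11 RAB genes were called lower.

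The cultures were checked against markers before the RAB genes were compared. EPCAM had signals of 25873 to 29021 and KRT18 of 30310 to 40270 on the 4 arrays, and KRT8 of 4003 to 7851, whereas the intestinal markers KRT20, VIL1, CDX2 and CEACAM5 lay at 17.0 to 221 and were not tested. The epithelial marker CDH1 was higher, with 1213 and 1835 in monolayers and 4643 and 5419 in MCS (1.73, limma adjusted p = 4.15e-05). KRT8 ran the other way without overlap, with 7851 and 6056 against 5962 and 4003 (-0.49, limma adjusted p = 0.0534), and was not called. EPCAM (0.016) and KRT18 (-0.11) were not called either. With spike-in scaling CDH1 was not called (0.88), while KRT8 (-1.35) and KRT18 (-0.975) were called lower. Of 7 measured markers of leukocytes, endothelium and fibroblasts, 6 had no signal above 199. The exception was the collagen gene COL1A1, with 869 and 658 in monolayers and 2222 and 2659 in MCS, so that the summed list ran from 962 to 1251 in monolayers and from 2597 to 2949 in MCS, and without COL1A1 from 304 to 382 and from 290 to 376. MKI67, the proliferation marker, differed by -1.27 and VEGFA, a hypoxia-inducible growth factor, by 2.24. Their part in the RAB differences was not tested. Arrays of a group correlated across genes at 0.984 and 0.979.

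The stretches of genome just before the transcription starts are shown for RAB27B, RAB5B and RAB40C, the 3 largest differences upward among tested RAB genes, for RAB7A, the largest downward, and for RAB5A and RAB5C, the paralogues of RAB5B. The sequences are the 250 bases before a start in RefSeq (GRCh38.p14), and 45 of the 57 genes had an entry. Capitals mark 3 motifs, searched on both strands: ACGTG, the core of the hypoxia response element, CACGTG, the E-box of MYC and of lysosomal regulators, which contains ACGTG, and TGANTCA, the AP-1 motif.
RAB27B, first start (chr18:54717607-54717856, plus strand): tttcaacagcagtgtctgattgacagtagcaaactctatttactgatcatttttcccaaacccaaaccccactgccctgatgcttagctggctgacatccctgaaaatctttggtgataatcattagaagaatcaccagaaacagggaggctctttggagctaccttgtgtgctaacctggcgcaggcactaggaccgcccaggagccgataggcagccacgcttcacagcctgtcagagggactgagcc
RAB27B, other start (chr18:54828227-54828476, plus strand): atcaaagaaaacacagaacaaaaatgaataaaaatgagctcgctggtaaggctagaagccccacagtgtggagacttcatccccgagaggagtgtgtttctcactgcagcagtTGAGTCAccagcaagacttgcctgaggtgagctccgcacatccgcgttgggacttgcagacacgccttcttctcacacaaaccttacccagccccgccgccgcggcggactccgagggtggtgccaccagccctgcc
RAB5B, first start (chr12:55973699-55973948, plus strand): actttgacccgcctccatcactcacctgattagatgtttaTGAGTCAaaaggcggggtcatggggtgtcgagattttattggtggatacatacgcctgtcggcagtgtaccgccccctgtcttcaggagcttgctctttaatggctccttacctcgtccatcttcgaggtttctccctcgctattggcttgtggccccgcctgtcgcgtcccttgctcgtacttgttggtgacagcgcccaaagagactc
RAB5A (chr3:19946847-19947096, plus strand): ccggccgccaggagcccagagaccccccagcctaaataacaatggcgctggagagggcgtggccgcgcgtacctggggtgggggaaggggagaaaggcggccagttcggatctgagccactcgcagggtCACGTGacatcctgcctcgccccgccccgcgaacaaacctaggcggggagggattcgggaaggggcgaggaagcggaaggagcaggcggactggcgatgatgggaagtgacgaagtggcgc
RAB5C (chr17:42154990-42155239, minus strand): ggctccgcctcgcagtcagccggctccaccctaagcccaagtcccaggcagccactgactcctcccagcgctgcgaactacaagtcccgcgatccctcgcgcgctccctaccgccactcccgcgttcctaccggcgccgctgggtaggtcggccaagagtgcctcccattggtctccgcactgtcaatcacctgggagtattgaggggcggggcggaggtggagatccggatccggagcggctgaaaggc
RAB40C, first start (chr16:589107-589356, plus strand): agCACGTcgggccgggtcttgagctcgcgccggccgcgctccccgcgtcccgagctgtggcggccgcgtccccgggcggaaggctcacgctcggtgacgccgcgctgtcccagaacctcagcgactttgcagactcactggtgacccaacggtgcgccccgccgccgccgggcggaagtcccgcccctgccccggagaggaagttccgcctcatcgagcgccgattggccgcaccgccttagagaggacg
RAB7A (chr3:128725933-128726182, plus strand): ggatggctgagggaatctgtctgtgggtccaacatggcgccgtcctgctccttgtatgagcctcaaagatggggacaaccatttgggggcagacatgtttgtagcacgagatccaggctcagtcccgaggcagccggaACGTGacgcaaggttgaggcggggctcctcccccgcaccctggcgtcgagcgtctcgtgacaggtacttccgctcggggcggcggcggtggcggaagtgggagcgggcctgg

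ACGTG stood in 18.5% of all 35116 such windows, CACGTG in 6.34% and TGANTCA in 6.57%. By gene, counting any of its windows, ACGTG was found for 16 of the 45 RAB genes, and 21.7% of all genes had it. Among RAB genes called higher it was found for 4 of 9 with an entry (RAB13, RAB2B, RAB40C and RAB5A), and among the other tested RAB genes for 8 of 21, including RAB7A. CACGTG was found for RAB5A of the called-higher genes and for 3 of the 21 others, and 7.73% of all genes had it. TGANTCA was found for RAB13, RAB27B and RAB5B among the called-higher genes and for RAB27A and RAB3B among the others. Of all genes 8.06% had it. RAB27B and RAB5B each had it before only 1 of their 2 listed starts. RAB40C carried ACGTG before each of its 3 listed starts, whereas both windows of RAB27B were without it. A match of letters is a description and no evidence that a factor binds there.

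RAB genes of regulated secretion and of lysosome-related organelles included the largest difference of the family. Of 10 members 6 were tested, 3 were higher and 0 lower, and their median of 0.63 became -0.19 with spike-in scaling. RAB27B, which docks secretory vesicles and exosome-bearing endosomes at the plasma membrane, had signals of 180 and 259 in monolayers and 854 and 1212 in MCS. Both spheroid arrays thus stood more than 3-fold above the brighter monolayer array, and the log2 difference was 2.08 ± 0.26 (4.23-fold, limma adjusted p = 8.4e-05). It was the sole RAB gene still called higher with spike-in scaling (1.29), and it ran from 1.84 to 2.33 when each array was left out. The other probe sets of RAB27B had means of 49.5 and 70.2 and were not tested. Its paralogue RAB27A, which acts in the same route, had signals of 641 and 554 against 635 and 688, so that the groups overlapped (0.14 ± 0.21, limma adjusted p = 0.629). The probe sets of RAB27A did not move alike. Its remaining probe sets with a mean above 300 differed by 0.08, 0.64 and 0.99. Groups did not overlap for the last of these, with 206 and 215 against 415 and 488, nor for the one before it, with 522 and 422 against 719 and 776.

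RAB38, which directs cargo to lysosome-related organelles such as melanosomes, had signals of 570 and 1057 in monolayers and 1808 and 1439 in MCS. The monolayer arrays were themselves nearly 2-fold apart, but the groups did not overlap (1.02 ± 0.26, limma adjusted p = 0.00748). Leaving out monolayer replicate 1 (0.60) or spheroid replicate 1 (0.86) ended the call. RAB32, which works beside RAB38, was not tested, since its signals were 143 and 73.8 against 24.2 and 122. RAB3D, a RAB of exocrine secretory granules, had 374 and 297 in monolayers and 711 and 656 in MCS, a log2 difference of 0.97 ± 0.23 (limma adjusted p = 0.00588). RAB3B lay nearer to equality with 700 and 536 against 795 and 712 (0.28 ± 0.22, limma adjusted p = 0.330). RAB26, another RAB of secretory granules, differed by 0.02 ± 0.25, and its sign turned with median scaling, quantile normalization and spike-in scaling.

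**Figure D2:**
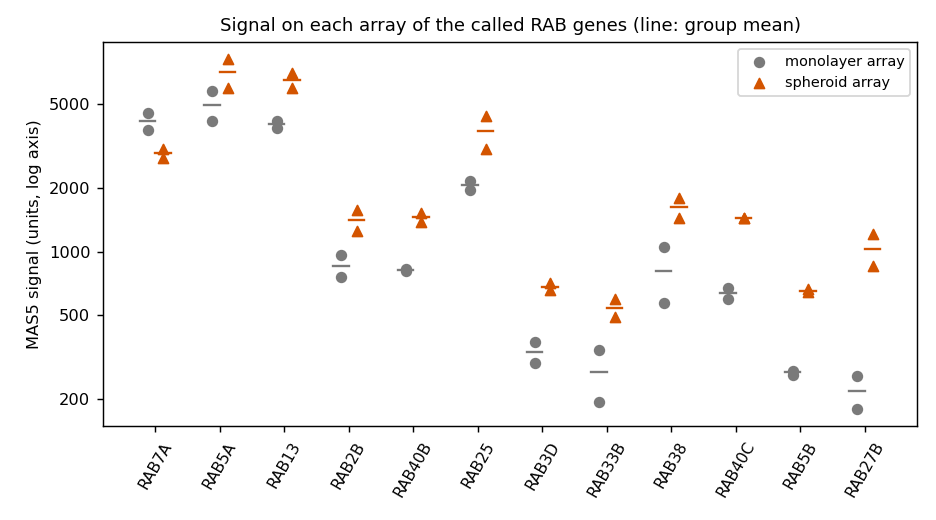
MAS5 signal (y, log axis) of the 12 called RAB genes (x, ordered by log2 difference) on each of the 2 monolayer and 2 spheroid arrays, with lines at the group means. Groups did not overlap for any of the 12, which were chosen by calls on these same arrays. Over all genes tested 70.0% did not overlap. RAB7A alone was lower in MCS, and RAB27B showed the widest gap, from 180 and 259 to 854 and 1212.

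Early endosome RAB genes were all tested, and the RAB5 paralogues were spread from the lower to the upper end of the compartment. Calls were made for 2 of the 7 (28.6%), both higher, beside 19.0% higher and 20.6% lower among all genes. The median of the 7 was 0.26 and became -0.57 with spike-in scaling. RAB5 proteins control fusion of endocytic vesicles with early endosomes. RAB5B had signals of 273 and 262 in monolayers and 646 and 664 in MCS, and arrays of a group were close to each other (1.20 ± 0.23, 2.29-fold, limma adjusted p = 0.00157). RAB5A was brighter on both spheroid arrays as well, with 4150 and 5789 against 5983 and 8190, although the lower spheroid array stood just above the higher monolayer array (0.51 ± 0.18, limma adjusted p = 0.0432). The threshold was missed without monolayer replicate 1 (0.27), without spheroid replicate 2 (0.29) and under 6 further alternatives. Among these were a mean signal above 100 (limma adjusted p = 0.0518) and the mean of its probe sets. The sign turned with spike-in scaling (-0.35). A dimmer probe set of RAB5A, with 939 and 1217 against 1098 and 1697, overlapped between groups and differed by 0.34. RAB5C had 2847 and 1942 in monolayers and 2299 and 1284 in MCS, which overlapped (-0.45 ± 0.25, limma adjusted p = 0.184). It was called lower without monolayer replicate 2 (-0.72), without spheroid replicate 1 (-0.86) and with the replicate number as a block (limma adjusted p = 0.0155). Another probe set of RAB5C, with 2800 and 1768 against 1627 and 1255, differed by -0.63 without overlap. The differences between paralogues were not tested.

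The remaining early endosome genes were not called. RAB31, which acts between the trans-Golgi network and endosomes, differed by 0.38 ± 0.19 and RAB20, described elsewhere as hypoxia-induced, by 0.26 ± 0.21, both without overlap of the groups. RAB31 was called higher with the replicate number as a block (limma adjusted p = 0.0396). RAB20 had 717 and 606 in monolayers and 743 and 847 in MCS. RAB21, a RAB of integrin endocytosis, differed by -0.20 ± 0.16. RAB22A showed no difference with its brightest probe set (-0.001 ± 0.20), whereas another, with 440 and 427 against 684 and 805, differed by 0.73.

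Of the 14 RAB genes of recycling and delivery to the cell surface, 11 were tested, and 2 were called higher and 0 lower. These 2 were 18.2%, near the 19.0% of all genes called higher, where 20.6% were lower. The median of the 11 was 0.18 and became -0.67 with spike-in scaling. RAB25, the epithelial relative of RAB11, had signals of 2167 and 1963 in monolayers and 4379 and 3059 in MCS, and the lower spheroid array still exceeded both monolayer arrays (0.82 ± 0.18, 1.76-fold, limma adjusted p = 0.00387). RAB13, which serves delivery to tight junctions, had 4157 and 3879 against 7071 and 5965 (0.69 ± 0.14, 1.61-fold, limma adjusted p = 0.00236). Neither lost its call when any array was left out, and both turned in sign with spike-in scaling (-0.04 and -0.17).

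RAB11A, the RAB of the recycling endosome, had 9477 and 9551 in monolayers and 11008 and 10024 in MCS and was not called (0.14 ± 0.12, limma adjusted p = 0.377). A dimmer probe set of RAB11A, with 614 and 700 against 1250 and 1064, differed by 0.79, and the gene was called as the mean of its probe sets (0.45, limma adjusted p = 0.037). RAB8A and RAB8B, which carry cargo to the basolateral membrane and the cilium, had differences of opposite sign and were not called. RAB8A had 3544 and 4183 in monolayers and 3187 and 2812 in MCS (-0.36 ± 0.16), and RAB8B had 1066 and 959 against 1324 and 1482 (0.46 ± 0.18), in both cases without overlap. With the replicate number as a block RAB8A was called lower and RAB8B higher (limma adjusted p = 0.0346 and 0.0249). RAB10, which serves basolateral delivery, differed by -0.22, RAB35 by -0.12, RAB4A of fast recycling by -0.04, RAB12 by 0.18, RAB14 by 0.23 and RAB17 by 0.51. None of these 6 was called.

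ER and Golgi RAB genes were higher in 2 (28.6%) and lower in 0 of 7 tested, with 15 in all. Over all genes 19.0% were higher and 20.6% lower. The median of the 7 was 0.18 and became -0.68 with spike-in scaling. RAB33B, a Golgi RAB that binds the autophagy protein ATG16L1, had signals of 344 and 195 in monolayers and 596 and 489 in MCS (0.97 ± 0.28, limma adjusted p = 0.0173). Neither removing monolayer replicate 2 (0.61) nor removing spheroid replicate 1 (0.83) left it called. RAB2B, which acts between the ER and the Golgi, had 758 and 962 against 1250 and 1580 (0.70 ± 0.20, limma adjusted p = 0.0166), which ended on removal of monolayer replicate 1 or of spheroid replicate 2 (0.53 in both). Its paralogue RAB2A had 3246 and 3478 in monolayers and 2735 and 2799 in MCS, the opposite order, without being called (-0.28 ± 0.15, limma adjusted p = 0.156). Its other 4 probe sets above 300 differed by between -0.003 and 0.29, so its sign depended on the probe set.

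RAB1A, needed for transport from the ER to the Golgi, had 25394 and 27407 in monolayers and 30914 and 30897 in MCS (0.23 ± 0.10, limma adjusted p = 0.0951). Its groups did not overlap, and the difference missed the threshold here but passed it with quantile normalization (0.23, limma adjusted p = 0.0434) and with the replicate number as a block (limma adjusted p = 0.0367). RAB1B differed by -0.14, RAB18 of the ER and lipid droplets by 0.18, and RAB29 of the trans-Golgi network by -0.23. All 3 overlapped between groups with their brightest probe sets. A dimmer probe set of RAB18, with 3432 and 3569 against 4746 and 4914, differed by 0.46 without overlap, and another by -0.21. RAB6A, the main Golgi RAB of retrograde transport, could not be judged, because its own probe set had signals of 5.21 to 21.8 and the 4 probe sets it shares with RAB6C or RAB6D in the annotation were not used.

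RAB7A, which directs late endosomes to fuse with lysosomes, was the sole member called lower, and its probe sets disagreed. Of the late endosome, lysosome and autophagy group 2 of 5 members were tested, with 0 higher and 1 lower. Among all genes 19.0% were higher and 20.6% lower. RAB7A had signals of 4565 and 3758 in monolayers and 3086 and 2786 in MCS (-0.49 ± 0.16, limma adjusted p = 0.0242). Its other bright probe set had 3181 and 3262 against 4020 and 2998 and differed by 0.11. It was not called after removal of monolayer replicate 1 (-0.35) or spheroid replicate 2 (-0.42), as the average of both probe sets (-0.19), with quantile normalization (-0.42), with no signal filter and with no intensity trend. RAB9A, which returns cargo from late endosomes to the Golgi, had 2030 and 2384 against 2456 and 2410 and was not called (0.14 ± 0.16). RAB24, linked to autophagy, fell just under the signal filter with a mean of 285 and had 276 and 218 in monolayers and 309 and 339 in MCS. With a mean signal above 100 as the filter it was tested and not called (0.36, limma adjusted p = 0.346).

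**Figure D3:**
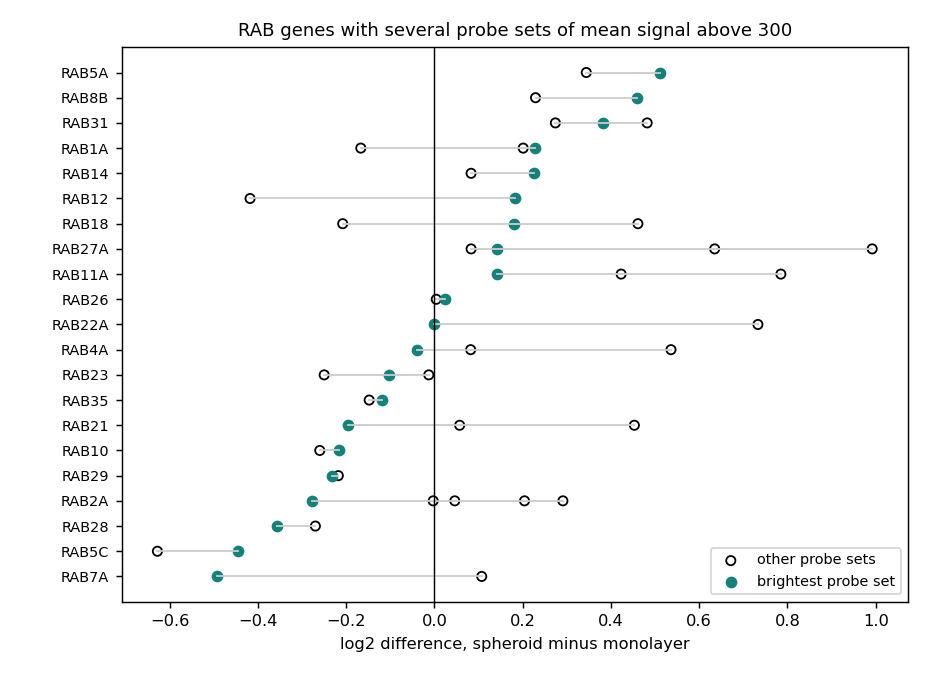
Spheroid minus monolayer log2 difference (x) of every probe set with a mean signal above 300, for the 21 RAB genes (y) with several such probe sets; filled points are the brightest probe set and open points the others. Probe sets fell on both sides of 0 for 8 of the 21 genes, among them RAB7A, RAB2A and RAB12.

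The RAB40 genes, which recruit a ubiquitin ligase through a SOCS box, were both higher where tested, under the authors' scaling. RAB40C had signals of 673 and 599 in monolayers and 1440 and 1453 in MCS, with spheroid arrays nearly equal (1.15 ± 0.19, 2.22-fold, limma adjusted p = 5.51e-04). RAB40B had 815 and 829 against 1525 and 1386 (0.80 ± 0.18, limma adjusted p = 0.00444). Neither call was lost when any array was left out, and with spike-in scaling the differences were 0.315 and -0.039. RAB40A was listed at 2.24 to 24.6 and was not tested. RAB23, a negative regulator of Hedgehog signalling at the cilium, differed by -0.10 and RAB28, a RAB of photoreceptor cilia, by -0.36, and both were not called. Together 2 of 4 tested genes of the cilium and other group, of 6 members, were higher and 0 lower. The shares among all genes were 19.0% higher and 20.6% lower. The median of the 4 was 0.35 and became -0.50 with spike-in scaling.

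The remaining 20 members had a mean signal of at most 300 and were not tested. The nearest inside the filter was RAB17, with 378 and 232 in monolayers and 511 and 371 in MCS, and the nearest outside was RAB24. Of the 20, 11 had a mean below 100, near which the added constant of 32 compresses differences. RAB42 had the largest difference among them (-1.02), with 128 and 122 in monolayers and 91.7 and 16.5 in MCS. RAB4B (160 and 35.3 against 194 and 173) and RAB37 (122 and 45.7 against 168 and 159) differed by 0.92 and 0.84, and in both a single dim monolayer array set the gap. RAB30 (129 and 79.3 against 129 and 235) and RAB6B (257 and 121 against 342 and 238) differed by 0.63 and 0.60, with overlapping groups. RAB11B had 149 and 72.7 against 184 and 155, a difference of 0.55. RAB32 and RAB3C differed by -0.55 and 0.54. RAB3A had 262 and 235 against 393 and 184 and overlapped. RAB7B, RAB9B, RAB15, RAB33A, RAB36, RAB39A, RAB39B and RAB43 completed the untested members. With no signal filter 8 RAB genes were called higher and 0 lower, and none of the 20 was called.

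**Figure D4:**
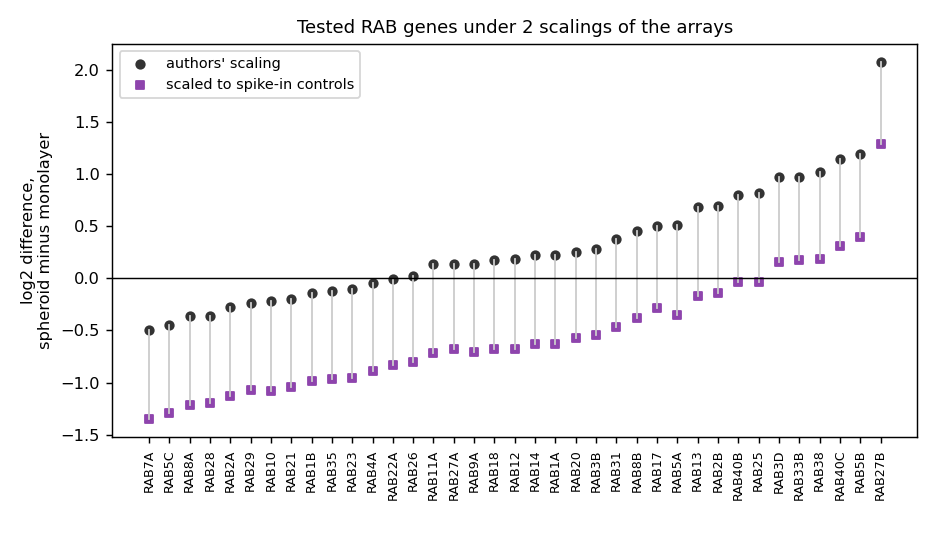
Spheroid minus monolayer log2 difference (y) of the 37 tested RAB genes (x, ordered by difference), with the authors' scaling (circles) and with arrays scaled to the Bacillus spike-in controls (squares). Scaling to the controls lowered every gene and moved the RAB median from 0.18 to -0.67, and RAB27B stayed at the top with 1.29.

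Genes that regulate RAB proteins or are bound by them were described from a list of 125, of which 118 had a probe set of 1 symbol and 94 were tested. Of these, 25 were higher (26.6%) and 9 lower (9.57%), with a median of 0.19, beside 19.0% and 20.6% of all genes. With spike-in scaling 1 was higher and 27 lower (median -0.62). Exchange factors were called least among the larger classes, with 3 of 27 higher and 2 lower. RABGEF1, an exchange factor of RAB5, was higher, with 556 and 438 in monolayers and 1007 and 938 in MCS (0.93 ± 0.21, limma adjusted p = 0.00440). RIC1, which activates RAB6, and DENND4C, which activates RAB10, differed by 0.81 and 0.65, and neither was called without spheroid replicate 2 (0.57 and 0.45), nor DENND4C without monolayer replicate 2 (0.58). TRAPPC4, a subunit of the TRAPP complex that activates RAB1, was lower with 4696 and 5073 against 2983 and 2910 (-0.72 ± 0.14, limma adjusted p = 0.00170). MON1A, part of the exchange factor of RAB7, was lower at -0.68 ± 0.25, a call that ended when any array was left out (-0.52 to -0.85).

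Of 24 tested GTPase-activating proteins, 6 were higher and 3 lower (median 0.16). SGSM2 had signals of 1337 and 1443 in monolayers and 3257 and 3531 in MCS (1.27 ± 0.16, limma adjusted p = 8.5e-05), and RABGAP1L had 395 and 391 against 894 and 951 (1.17 ± 0.21, limma adjusted p = 0.00101). Arrays of a group lay close to each other for both genes, and both calls held when each array was left out. TBC1D23, which tethers vesicles at the trans-Golgi network, differed by 0.69 and lost its call without spheroid replicate 1 (0.58). TBC1D24, TBC1D30 and TBC1D7 were the lower members at -0.80, -0.80 and -0.65. Each of the 3 lost its call without at least 1 array, and TBC1D24 differed by -0.295 without spheroid replicate 1. Of the GDP dissociation inhibitor and prenylation group 6 of 8 genes were tested. RABAC1, a RAB acceptor of the Golgi, was higher (757 and 749 against 1556 and 1104, 0.78), but not without spheroid replicate 1 (0.53). GDI2 (-0.15), CHML (-0.37), RABGGTA (-0.21), RABGGTB (-0.48) and RABIF (-0.04) were not called.

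**Figure D5:**
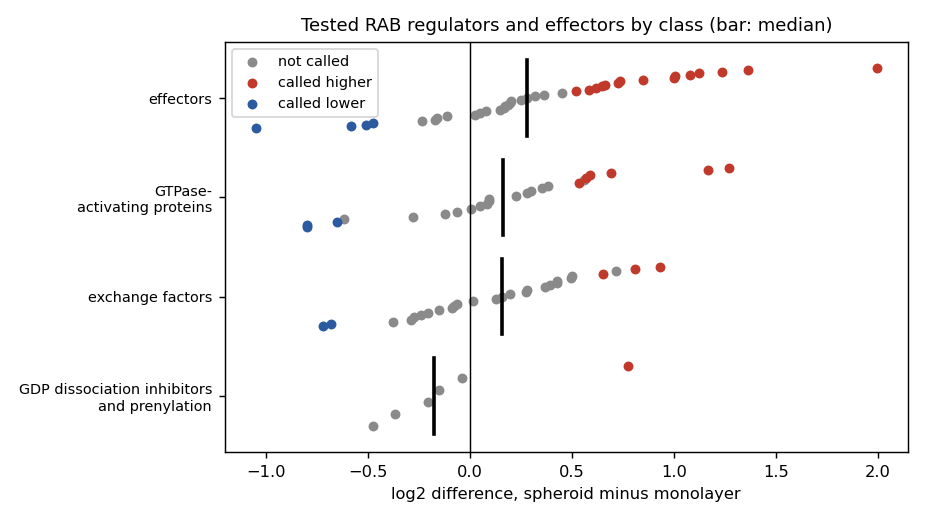
Spheroid minus monolayer log2 difference (x) of the 94 tested regulators and effectors of RAB proteins (points, spread vertically for legibility) in 4 classes (y), with a bar at each median. Effectors, 37 of the 94 tested, held 15 of the 25 genes called higher and OPTN the largest difference (1.99). With spike-in scaling OPTN alone was called higher and the medians of all 4 classes were below 0.

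Effectors had the highest share of higher genes among the classes. Of 37 tested, 15 were higher (40.5%) and 4 lower (10.8%), beside 19.0% and 20.6% of all genes. The effector median was 0.28, and spike-in scaling left 1 higher and 8 lower at a median of -0.53. OPTN, the autophagy receptor optineurin and an effector of RAB8, had signals of 463 and 397 in monolayers and 1897 and 1714 in MCS (1.99 ± 0.20, limma adjusted p = 1.5e-05). It was also called with spike-in scaling (1.17). SYTL1, SYTL2 and MLPH, which bind RAB27, were also among the higher effectors under the authors' scaling. SYTL1 had 597 and 370 against 1203 and 1101 (1.24 ± 0.24), SYTL2 had 515 and 301 against 773 and 1039 (1.12 ± 0.27) and MLPH had 2436 and 2535 against 5071 and 5497 (1.08 ± 0.14). None overlapped between groups, and the limma adjusted p-values were 0.00155, 0.00565 and 1.27e-04, although the call of SYTL2 was lost without spheroid replicate 2 (0.92) and none was called with spike-in scaling (0.41, 0.31 and 0.22). The dimmer RAB27 effectors SYTL4 (161 and 122 against 339 and 279), SYTL5 (36.9 and 35.1 against 143 and 57.1) and MYRIP were not tested. MYRIP had 78.0 and 17.6 against 42.2 and 35.9, and its groups overlapped (-0.057).

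GOLGB1, which encodes the Golgi tether giantin, was another higher effector under the authors' scaling and had signals of 735 and 794 in monolayers and 2186 and 1854 in MCS (1.36 ± 0.18, limma adjusted p = 1.36e-04). Further Golgi effectors were named after their values were seen. GOLGA2, which encodes GM130, differed by 1.003, GCC2 by 0.85, GORASP2 by 0.66 and GOLGA5 by 0.65, while GORASP1 was not called (0.18). With spike-in scaling none of these 6 genes was called higher, and GOLGA5, GORASP2 and GORASP1 turned in sign (-0.21, -0.20 and -0.62). GORASP2 lost its call without monolayer replicate 2 (0.43) or spheroid replicate 1 (0.48) and also when its probe sets were averaged (0.20). Effectors of RAB5 and RAB11, named after their values were seen, went in both directions. EEA1, the early endosome tether, had 1094 and 1168 against 739 and 828 (-0.51 ± 0.19, limma adjusted p = 0.0491) and RABEP1, rabaptin-5, had 1869 and 2151 against 1395 and 1472 (-0.48 ± 0.17, limma adjusted p = 0.0413), whereas APPL2 was higher (0.74). These 3 calls were fragile: EEA1 and RABEP1 lost theirs when any array was left out, and APPL2 without any array but monolayer replicate 2. RAB11FIP1 was higher with 1249 and 1341 against 2551 and 2696 (1.001 ± 0.16, limma adjusted p = 5.15e-04), as was the motor MYO5B (0.58). RAB11FIP5 was higher at 0.62, which was not called on removal of either monolayer array (0.71 and 0.53) or of spheroid replicate 1 (0.46). RAB11FIP2 was lower (-0.59), a call lost without monolayer replicate 2 (-0.51) or spheroid replicate 1 (-0.32). KIF20A, a kinesin first found as a RAB6 partner and known for its part in mitosis, was the effector with the largest decrease, at 2991 and 3372 against 1435 and 1600 (-1.05 ± 0.16, limma adjusted p = 3.46e-04). MKI67 differed in the same direction.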

How the data were processed

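HCT116 cells were profiled on 1-colour Affymetrix U133 Plus 2.0 arrays, 2 per culture type, from independent cultures. The authors normalized the arrays with MAS5 (version not given in the sources used here), and deposited 1 linear signal intensity for each probe set. Each array had a mean of 500.1 without its lowest and highest 2%, so differences are relative to total signal. Detection calls were not used here. Of 54675 probe sets, 41091 had 1 symbol in the platform annotation, 1801 had several and 11721 had none listed, and 62 were controls.

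Tests used log2(signal + 32), a scale on which dim genes change too little. Probe sets with a mean of the 4 arrays above 300 were kept, after the study's threshold, with the brightest probe set per gene. The group difference was fitted in limma (version 3.58.1, R 4.3.3) through lmFit and eBayes with an intensity trend. Tests were two-sided, with Benjamini-Hochberg adjustment across the 8721 genes (2 residual and 10.5 prior degrees of freedom). Errors beside differences are standard errors, n = 2 per group, and the number of arrays limits the precision. Members, compartments and lists were chosen with earlier results of these data known. The naming rule took called RAB genes, RAB genes of the same number, untested RAB genes, up to 6 called genes per regulator class and the check markers. The remaining tested members and other genes were named after their values were seen. Compartments are a simplification from general knowledge of each RAB. Settings varied were the filter, the constant, the scaling, the probe set rule, the trend, the replicate number as a block and each array left out.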

Additional observations from a re-analysis of the deposited data

How the results depend on the processing

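The number of RAB genes called higher was 11 and ran from 8 to 14 under every alternative but scaling to the spike-in controls. That scaling gave 1 higher and 11 lower RAB genes and a median of -0.67, 183 higher and 3996 lower of all genes, and 1 higher and 27 lower regulators. With it the sign turned for RAB2B (-0.14), RAB5A (-0.35), RAB13 (-0.17), RAB25 (-0.036), RAB40B (-0.039), RAB3B (-0.54), RAB27A (-0.68), RAB1A (-0.63), RAB8B (-0.38), RAB9A (-0.71), RAB11A (-0.72), RAB12 (-0.67), RAB14 (-0.63), RAB17 (-0.29), RAB18 (-0.68), RAB20 (-0.57), RAB26 (-0.80), RAB31 (-0.47), RABAC1 (-0.062), RIC1 (-0.016), DENND4C (-0.19), TBC1D23 (-0.15), GOLGA5 (-0.21), GORASP2 (-0.20), APPL2 (-0.064), RAB11FIP5 (-0.21) and MYO5B (-0.27). The sign of GORASP1 turned as well (-0.62). The construction of this scaling lowers the MCS arrays as a whole.

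The single lower RAB gene became 0 with no signal filter, with quantile normalization, as averaged probe sets, after removal of _x_at and _s_at probe sets (where 1114 of 6094 genes were lower) and with no intensity trend. Lower regulators numbered 2 with no signal filter. Leaving out each array gave 0 to 2 lower and 8 to 10 higher RAB genes, a RAB median of 0.17 to 0.24, and 2 to 8 lower and 17 to 21 higher regulators. With the replicate number as a block, 14 RAB genes were higher and 3 lower, and 2114 and 2301 of all genes. RAB8A and RAB5C were the added lower ones and RAB1A, RAB8B and RAB31 the added higher ones, and nothing states that equal numbers share a batch. Deviations of same-numbered arrays correlated at 0.323.

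Uncalled genes near equality turned in sign elsewhere. These were RAB26 with median scaling (-0.018) and quantile normalization (-0.064), and as means of probe sets RAB2A (0.052), RAB4A (0.19), RAB12 (-0.12), RAB21 (0.10) and RAB22A (0.37). After removal of _x_at and _s_at probe sets they were RAB1A (-0.17) and RAB12 (-0.42). That removal left 28 RAB genes tested and no value for RAB1B, RAB5C, RAB7A, RAB14, RAB18, RAB27A, RAB31, RAB33B and RAB40C. With each array left out in turn RAB1B ran from -0.47 to 0.19, RAB18 from -0.036 to 0.40, RAB22A from -0.048 to 0.047, RAB23 from -0.43 to 0.23 and RAB26 from -0.355 to 0.40. Of 975 values of the 66 named genes over 15 alternatives, 813 kept direction and side of the threshold, 96 lost a call, 20 gained 1 and 46 turned in sign. Signals near the unspiked controls (4.47 to 35.0) hold no order.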
